A study of Mus musculus with 4 samples.

Results

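Transcripts of the reelin pathway were followed in mouse P19 embryonal carcinoma cells, which retinoic acid and aggregation steer to a neural fate. The 6 genes were Reln (the ligand), Vldlr and Lrp8 (its receptors), Dab1 (the intracellular adaptor), and Apoe and Lrp1, a lipoprotein ligand and a larger receptor of the same family. They were chosen by symbol, after Vldlr had come up among the genes with the smallest unadjusted p for a lower reading in LIN28A cells, in the same comparison of lines, so the differences between lines below are descriptions and carry no test. Every probe set with one of these symbols alone was kept, which gave 13 probe sets of 22690 on the array, for 6 of the 12393 genes named there, 5 for Dab1, 4 for Vldlr and 1 for each other gene. All 13 passed the filter on low values, at a mean of log2(intensity + 16) no lower than the 30th percentile.

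The control was unmodified P19 cells, with no vector that the labels mention, and the other line was P19 cells with constant expression of human LIN28A, whose protein binds let-7 precursors and stops their processing. Each line spent 4 days as aggregates in medium with all-trans retinoic acid at 5e-07 M, and 2 arrays were made of each, numbered 1 and 2. The labels do not give the promoter of the transgene, nor say whether the line was a clone or a pool, or whether the repeats were separate cultures. The arrays' probe sets are annotated to mouse genes, so the human transcript was not checked here.

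Reelin is a large secreted glycoprotein, known above all for placing migrating neurons in the layers of the cortex and cerebellum. It binds the receptors VLDLR and ApoER2 (the product of Lrp8), whose cytoplasmic tails hold the adaptor DAB1. Src-family kinases then phosphorylate DAB1, which passes the signal to CRK proteins, PI3-kinase and the cytoskeleton. Mice without Reln, without Dab1 or without both receptors share the reeler phenotype.

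The array medians were 29.0 to 38.6 in intensity, and 35.7% to 42.3% of probe sets read under 16 on an array. Arrays of the same number were more alike (Pearson's r across probe sets 0.97 for each number) than arrays of the same line (0.93 for control and 0.94 for LIN28A), and probe sets are not independent replicates. For that reason each line is compared with the other within number 1 and within number 2. Neural markers were read on all arrays, with the progenitor gene Sox2 between 1295 and 1902 and the neuronal tubulin gene Tubb3 between 372 and 644. The neuronal nuclear gene Rbfox3 stayed under 16 on every array. The arrays are of whole aggregates, so fewer cells of a type and less RNA per cell cannot be told apart.

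Across the 13 probe sets, 11 read lower in LIN28A cells within number 1 and also within number 2, and 0 read higher in both numbers. Over all 15838 tested probe sets, 33.3% were lower and 24.2% higher in both numbers. For 7 of the 13, both LIN28A arrays lay below both control arrays, against 15.5% of all probe sets. Of these 7, 4 were of Vldlr, the gene whose lower reading led to the choice, 2 of Dab1 and 1 of Apoe. With all 13 kept, 10 were lower in both numbers under median centring and 9 under quantile normalization, and 6 and 5 had no overlap. The Vldlr probe set 1451156_s_at passed the filter only through its control arrays, so a lower reading in LIN28A cells was partly built in there. Of the other 12, which still held 3 probe sets of Vldlr, 10 were lower in both numbers and 6 had no overlap, with a median difference of -0.58. The median difference of the 13 was -0.61 on the log2(intensity + 16) scale (-0.61 in number 1 and -0.58 in number 2), beside -0.05 over all tested probe sets. The 11 were the 4 probe sets of Vldlr, the 5 of Dab1, and those of Reln and Apoe, whereas Lrp8 and Lrp1 had opposite signs in the numbers. By gene, the median difference was -1.45 for Vldlr, -0.65 for Dab1, -0.51 for Apoe, -0.44 for Reln, -0.04 for Lrp8 and 0.09 for Lrp1. The counts and medians of the 13 and of the 12 thus include the gene they were chosen by. The test over the whole table, by limma with no block and an adjusted p under 0.05, called no probe set in either direction (0% higher and 0% lower). An unadjusted p under 0.05 by limma was reached by 70 that were higher and 192 that were lower. That split depended on the scaling, with 167 higher and 107 lower under median centring and 122 and 168 under quantile normalization. With the replicate number as a block limma called 1 higher (0.00631%), which was Peg3, an imprinted gene named here after its value was seen, and 0 lower, so no member was called by either fit.

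**Figure D1:**
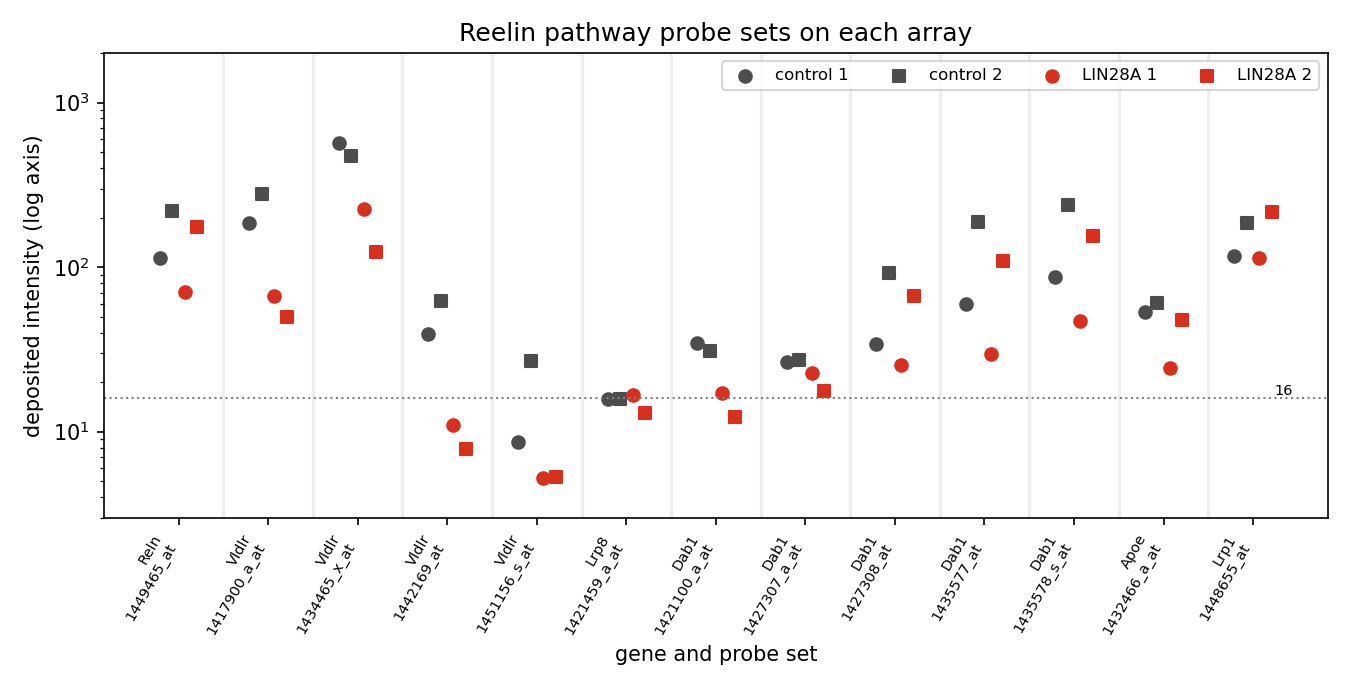
Deposited intensity (log axis) of the 13 probe sets on the 4 arrays, grey for control, red for LIN28A, circles for number 1 and squares for number 2; the dotted line marks 16. The red symbols of the 4 Vldlr probe sets lie below both grey ones, while Lrp8 stays near 16 on all arrays and the numbers separate Reln, Lrp1 and 3 Dab1 probe sets.

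Reln, the ligand, is transcribed in early neurons such as the Cajal-Retzius cells of the cortex. Its single probe set (1449465_at) read 113 in control 1, 220 in control 2, 70.1 in LIN28A 1 and 176 in LIN28A 2. LIN28A cells were lower within each number, at 62.0% of control in number 1 and 80.1% in number 2, but LIN28A 2 exceeded control 1 and the lines overlapped. The means were 166 ± 75.4 in control, against 123 ± 74.9 in LIN28A cells (SD, n = 2). The log2 difference between lines was -0.44 ± 0.50 (SE of the fit without a block, which holds the difference between numbers). It was smaller than the difference between numbers, which was 0.87 in control, against 1.16 in LIN28A cells. The difference between lines became 0.14 without LIN28A replicate 1 and -0.0048 without control replicate 2, fits in which part of the difference between numbers entered.

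Genes of reelin-producing and other early neurons were read beside Reln. Of the 8 measured, 2 lay lower on both LIN28A arrays, and 1 higher (Tbr1, which was under 16 throughout). For this and each later marker list, the shares over all tested probe sets were 15.5% lower and 10% higher on both LIN28A arrays. The share lower within both numbers was 33.3%. Marker genes were read whether or not they passed the filter, so these shares are a rough background. Their summed intensity was 354 and 751 in control 1 and 2, and 270 and 723 in LIN28A 1 and 2, so this sum, like Reln, differed more by number than by line. The LIM homeobox genes Lhx1 and Lhx5 were the 2 lower ones. Lhx1 read 116, 148, 78.8 and 80.9, and Lhx5 read 32.8, 53.1, 16.5 and 14.4, in the order control 1, control 2, LIN28A 1, LIN28A 2. Their part in the Reln readings was not tested.

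Vldlr encodes the very low density lipoprotein receptor, which binds reelin and, in fat and muscle, takes up triglyceride-rich particles. The gene lies on mouse chromosome 19 (chr19:27216480-27254231, GRCm38.p6). All 4 of its probe sets read lower on both LIN28A arrays than on both control arrays. The start-site windows are shown because Vldlr carried the widest difference among the 6 genes. RefSeq's table for GRCm38.p6 held 2 windows for it, each with 250 bases before a transcript start and 50 after, printed 5′ to 3′ with each E-box (CANNTG, the letters bound by many helix-loop-helix factors, the same on both strands) in capitals.
Vldlr upstream window at chr19:27216234-27216533 (+ strand): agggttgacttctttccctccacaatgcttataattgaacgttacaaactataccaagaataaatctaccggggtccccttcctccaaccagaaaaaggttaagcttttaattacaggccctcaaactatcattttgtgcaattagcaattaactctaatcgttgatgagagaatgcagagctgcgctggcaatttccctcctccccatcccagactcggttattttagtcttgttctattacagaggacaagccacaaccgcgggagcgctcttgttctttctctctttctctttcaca
Vldlr downstream window at chr19:27216770-27217069 (+ strand): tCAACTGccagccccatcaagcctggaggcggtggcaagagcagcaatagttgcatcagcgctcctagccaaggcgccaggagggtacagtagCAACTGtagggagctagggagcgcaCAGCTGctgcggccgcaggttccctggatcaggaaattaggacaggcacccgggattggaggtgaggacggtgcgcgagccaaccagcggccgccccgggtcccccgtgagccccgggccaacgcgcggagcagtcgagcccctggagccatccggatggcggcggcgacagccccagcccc

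The upstream Vldlr window held 0 E-boxes and had a GC content of 43.0%. The downstream window held 3 and had 68.0%, beside a median of 52.7% over all 32851 windows in the table, of which 72.3% held at least 1 E-box. Neither Vldlr window held ACGTG, a core of hypoxia response elements, or AGGTCA, a half-site of retinoid receptors, on either strand. Those letters occurred in 19.6% and 16.3% of all windows. GGGCGG, the GC box, occurred 1 time in the downstream window and in 35.7% of all windows. A match or its absence describes these letters in these windows only.

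The brightest Vldlr probe set (1434465_x_at) read 568 in control 1, 471 in control 2, 225 in LIN28A 1 and 124 in LIN28A 2. The second in brightness (1417900_a_at) read 186, 278, 66.4 and 49.9 on the same arrays. In both, the higher LIN28A array stayed well under the lower control array, and LIN28A 2 was the lowest of the 4. The means were 519 ± 68.9 and 175 ± 71.6 at the former, and 232 ± 64.9 and 58.2 ± 11.7 at the latter (SD, n = 2).

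The other Vldlr probe sets were dim. 1442169_at read 39.0, 62.1, 11.0 and 7.90 in control 1, control 2, LIN28A 1 and LIN28A 2, and 1451156_s_at read 8.70, 26.7, 5.20 and 5.30. At 1442169_at both control arrays exceeded 16 and both LIN28A arrays did not. At 1451156_s_at only control 2 exceeded 16, so 3 of its 4 readings were under the value added before the log, and its difference in number 1 was the smallest of the 4.

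Within number 1 the Vldlr differences were -1.30 (1417900_a_at), -1.27 (1434465_x_at), -1.03 (1442169_at) and -0.22 (1451156_s_at) on the log2(intensity + 16) scale. Within number 2 they were -2.16, -1.80, -1.71 and -1.0 in the same order. Each was further below 0 in number 2, by 0.52 to 0.86, and the sign of 1451156_s_at is not independent of the filter. As plain intensity, LIN28A cells had 35.6% of control in number 1 and 17.9% in number 2 at 1417900_a_at, and 39.7% and 26.4% at 1434465_x_at. A difference at or below -1 in both numbers was found for 3 of the 4 Vldlr probe sets, for 0 of the other 9, and for 0.316% of all tested probe sets. Taken singly, 3 of the 13 reached -1 in number 1 and 4 in number 2, all of them Vldlr, against 2.55% and 2.29% of all probe sets. As Vldlr was chosen by this comparison, these counts are descriptions only.

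The mean Vldlr differences were -1.73 ± 0.33, -1.54 ± 0.37, -1.37 ± 0.32 and -0.61 ± 0.36 (SE of the limma fit) in that order. With 1 added before the log in place of 16 they were -1.97, -1.62, -2.28 and -1.39. Leaving out any single array kept them below 0, between -2.0 and -1.46, -1.93 and -1.14, -1.62 and -1.11, and -1.01 and -0.22. Of the tested probe sets, 0.0631%, 0.107%, 0.253% and 4.67% lay at or below the mean differences. Since Vldlr was chosen by its lower reading in this same comparison, these shares carry no test. Probe sets of 1 gene share transcripts and are not replicates, and those ending in _x_at or _s_at can also bind transcripts of other genes.

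**Figure D2:**
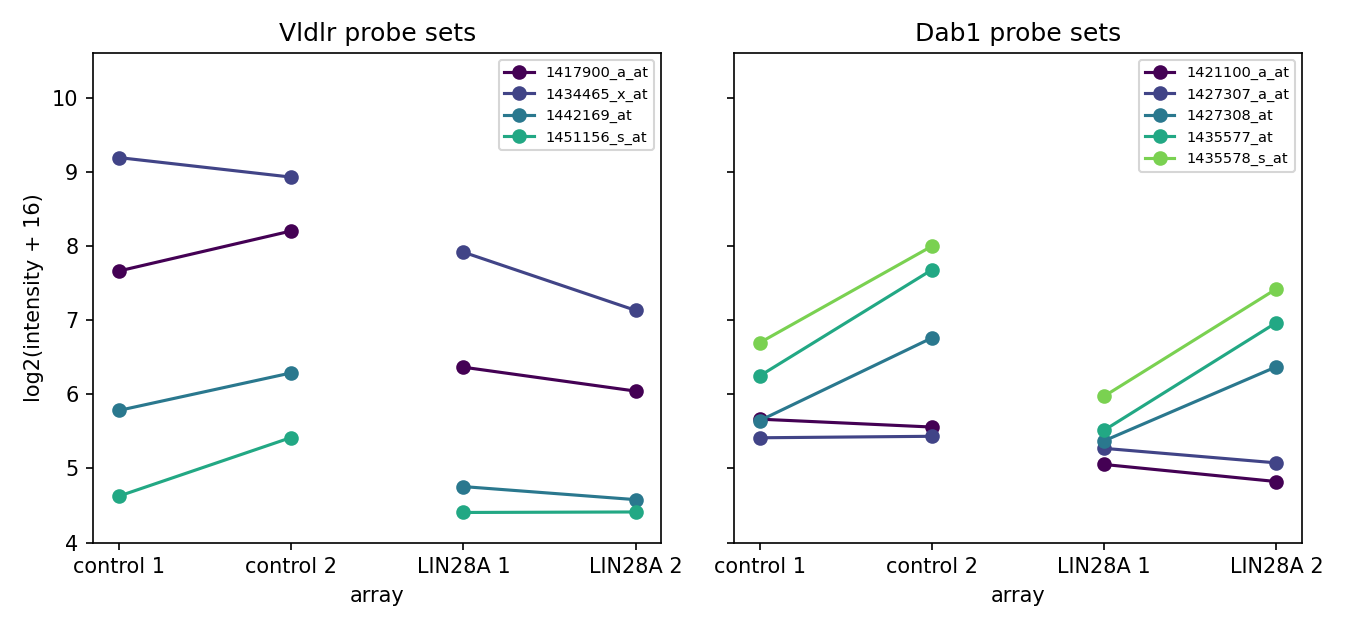
Level, as log2(intensity + 16), of each Vldlr probe set (left) and each Dab1 probe set (right) on the 4 arrays; lines join the arrays of 1 cell line. The Vldlr curves of the LIN28A line lie below those of control at both numbers, whereas 3 Dab1 curves are higher by 1.0 to 1.45 at number 2 than at number 1 in each line.

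The genes whose readings over the 4 arrays lay nearest to the brightest Vldlr probe set were Slc38a4 (an amino acid transporter gene), Mapt (the gene of the microtubule protein tau), Foxd4 (a forkhead factor gene), Flywch2 and Lgals1 (the galectin-1 gene). Likeness was the Euclidean distance between centred log2(intensity + 16) values over 4 arrays, and was 0.18, 0.31, 0.32, 0.32 and 0.33 for them. The other Vldlr probe sets stood farther off, at 0.68 (1417900_a_at), 0.71 (1442169_at) and 1.31 (1451156_s_at). Slc38a4 read 94.5, 62.8, 29.3 and 9.40, and Lgals1 read 306, 220, 134 and 75.1, in the order control 1, control 2, LIN28A 1, LIN28A 2. The difference of Slc38a4 was -1.46 there and -1.61 at its other probe set, and that of Lgals1 was -1.24 and -1.21. Mapt had -1.80, with -1.19 and -0.35 at its other probe sets, and Flywch2 had -1.34, with -0.56 at its other one. Over 4 arrays this likeness is a description only.

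Endothelial cells also express Vldlr, and most of their markers were under 16. Of 6 endothelial genes, Pecam1, Cdh5, Tie1 and Cldn5 were under 16 on every array, and the summed intensity of the list was 49.2 and 30.5 in control, against 33.0 and 31.6 in LIN28A cells. On both LIN28A arrays 3 of the 6 lay lower and 0 higher than in control, and those 3 (Pecam1, Cdh5 and Cldn5) were under 16 throughout. The part of endothelial cells in the Vldlr readings was not tested.

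Lrp8 encodes ApoER2, the other reelin receptor, and its single probe set did not separate the lines. The probe set (1421459_a_at) read 15.7 in control 1, 15.7 in control 2, 16.7 in LIN28A 1 and 12.9 in LIN28A 2. All 4 values were close to 16, in the dimmer part of the array (39.2nd percentile of mean level), and the lines overlapped. The log2 difference was -0.04 ± 0.28 (SE), 0.04 in number 1 and -0.13 in number 2, and it became 0.17 under quantile normalization and 0.08 under median centring. With readings this low, a difference at Lrp8 may not have been detectable, and the 2 receptors' differences were not tested against each other.

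Dab1, the adaptor that binds the receptor tails, read lower in LIN28A cells at all 5 of its probe sets within each number, though for 3 of them the lines overlapped. The gene lies on chromosome 4 (chr4:103619500-104744844, GRCm38.p6). Its probe sets fell into a pair of profiles, which were not matched to transcripts or start sites here. Its 2 start-site windows are printed as for Vldlr, and the capitals again mark E-boxes.
Dab1 upstream window at chr4:103619250-103619549 (+ strand): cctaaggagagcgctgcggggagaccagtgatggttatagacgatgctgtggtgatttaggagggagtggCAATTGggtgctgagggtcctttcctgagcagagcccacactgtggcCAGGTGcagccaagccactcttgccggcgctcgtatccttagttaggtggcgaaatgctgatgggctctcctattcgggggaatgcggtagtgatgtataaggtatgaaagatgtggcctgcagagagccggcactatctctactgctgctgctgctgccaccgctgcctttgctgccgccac
Dab1 downstream window at chr4:104367288-104367587 (+ strand): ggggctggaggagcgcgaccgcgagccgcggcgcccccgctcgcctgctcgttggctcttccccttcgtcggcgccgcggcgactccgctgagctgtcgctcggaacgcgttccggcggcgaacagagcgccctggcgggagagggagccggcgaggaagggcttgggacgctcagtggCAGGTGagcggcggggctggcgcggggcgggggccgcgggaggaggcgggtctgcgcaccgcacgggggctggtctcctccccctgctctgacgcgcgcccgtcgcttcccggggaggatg

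The upstream Dab1 window held 2 E-boxes and the downstream window 1, and neither held ACGTG or AGGTCA. Their GC contents were 57.3% and 77.3%. For comparison, the single Reln window at chr5:22344656-22344955 (- strand) had 80.7% GC, 1 E-box, 2 matches of ACGTG, 1 on each strand and both inside that E-box (CACGTG), and 6 of GGGCGG.

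The brightest Dab1 probe set (1435578_s_at) read 87.5 in control 1, 239 in control 2, 46.8 in LIN28A 1 and 155 in LIN28A 2. 1435577_at read 59.9, 189, 29.7 and 109, and 1427308_at read 34.0, 92.3, 25.4 and 66.7 on the same arrays. In these 3 the number separated the arrays more than the line did, number 2 being 2.71 to 3.15 times number 1 in control and 2.63 to 3.67 times in LIN28A cells, so LIN28A 2 exceeded control 1. Within a number, LIN28A cells had 53.5% and 64.9% of control at 1435578_s_at, 49.6% and 57.7% at 1435577_at, and 74.7% and 72.3% at 1427308_at, in numbers 1 and 2.

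The other pair of Dab1 probe sets was dimmer and differed little with number. 1421100_a_at read 34.7 and 31.1 in control, against 17.2 and 12.3 in LIN28A cells, and 1427307_a_at read 26.6 and 27.2 in control, against 22.6 and 17.7 in LIN28A cells. For both, the LIN28A arrays lay below the control arrays with no overlap. LIN28A cells had 49.6% and 39.5% of control at the former, and 85.0% and 65.1% at the latter, in numbers 1 and 2. Their means were 32.9 ± 2.55 against 14.8 ± 3.46, and 26.9 ± 0.42 against 20.2 ± 3.46 (SD, n = 2).

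The differences of the Dab1 probe sets were -0.67 ± 0.28 (1421100_a_at), -0.25 ± 0.28 (1427307_a_at), -0.33 ± 0.52 (1427308_at), -0.72 ± 0.66 (1435577_at) and -0.65 ± 0.63 (1435578_s_at) on the log2(intensity + 16) scale (SE). Each SE is of the fit without a block and so holds the difference between numbers. At 1435577_at, where the SE was 0.66, the differences within numbers 1 and 2 were -0.73 and -0.71. Over the 5 probe sets the differences lay between -0.73 and -0.14 within number 1 and between -0.73 and -0.36 within number 2. On that scale 0 of the 5 reached -1 in either number. With 1 added in place of 16, the mean difference of 1421100_a_at was -1.12. For the 3 with a large difference between numbers the sign turned when an array was left out. Without LIN28A replicate 1 they were 0.17, 0.0033 and 0.075 at 1427308_at, 1435577_at and 1435578_s_at, and without control replicate 2 they were 0.23, -0.0067 and 0.0026. The other 2 kept their sign without any single array, between -0.79 and -0.56 and between -0.35 and -0.15.

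Neuronal markers were read beside Dab1, and their sum was higher in number 2 in each line and lower in LIN28A cells within each number. The summed intensity of 8 neuronal markers was 2383 and 3590.5 in control 1 and 2, and 1238 and 3016 in LIN28A 1 and 2. Of the 8, 5 were lower within both numbers and 2 lay lower on both LIN28A arrays, Elavl4, an RNA-binding protein gene, and Stmn2, a microtubule regulator gene. Elavl4 read 232, 453, 130 and 190, and Stmn2 read 821, 902, 216 and 627, in the order control 1, control 2, LIN28A 1, LIN28A 2. Tubb3 and Ncam1 were lower in LIN28A cells in number 1 (log2 differences -0.43 and -0.92) and higher in number 2 (0.25 and 0.24). The neural progenitor list had a sum of 7210 and 8991 in control, against 6765 and 6041 in LIN28A cells. Of its 8 genes 2 lay lower on both LIN28A arrays (Sox2 and Vim) and 0 higher. Sox3, Pax6 and Nes were higher in LIN28A cells in number 1 (log2 differences 1.09, 0.90 and 0.72). They were lower in number 2 (-0.72, -0.76 and -0.53). Of 6 pluripotency genes 2 lay higher and 0 lower there, Tdgf1 and Zfp42 were under 16 on every array, and the list summed to 138.5 and 393 in control, against 253 and 925 in LIN28A cells. Single genes carried these sums. In the same order, Pou5f1 read 30.3, 374, 28.7 and 775, and Nanog read 70.8, 5.70, 10.4 and 37.8. The 2 higher genes were Sall4 (16.4, 2.10, 194 and 83.1) and Utf1 (5.50, 3.80, 16.4 and 16.5). Their part in the Dab1 and Vldlr readings was not tested.

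**Figure D3:**
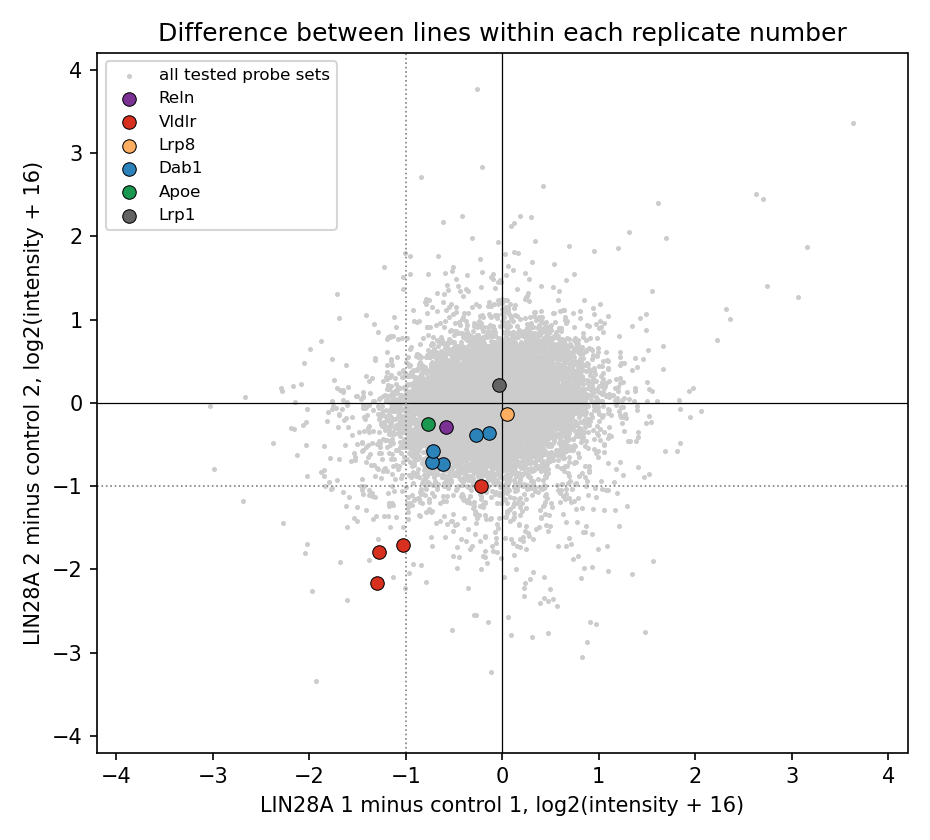
LIN28A minus control on the log2(intensity + 16) scale, within number 1 on the horizontal and within number 2 on the vertical axis, for all 15838 tested probe sets (grey) and the 13 reelin pathway probe sets (coloured by gene); dotted lines mark -1. Vldlr lies to the lower left, with 3 of its 4 points past -1 on both axes, Dab1, Reln and Apoe lie nearer to 0 in the same quadrant, and Lrp8 and Lrp1 lie by the origin.

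Apoe encodes apolipoprotein E, a lipid carrier made mainly by astrocytes in the brain and a ligand of VLDLR, ApoER2 and LRP1. Its probe set (1432466_a_at) read 53.1 in control 1, 60.1 in control 2, 24.4 in LIN28A 1 and 48.0 in LIN28A 2. Both LIN28A arrays lay below both control arrays, but LIN28A 2 was close to control 1. The means were 56.6 ± 4.95 and 36.2 ± 16.7 (SD, n = 2), and LIN28A cells had 46.0% of control in number 1 and 79.9% in number 2. The log2 difference was -0.51 ± 0.34 (SE), -0.77 in number 1 and -0.25 in number 2, and -0.18 without LIN28A replicate 1.

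Markers of other cells that make apolipoprotein E were mostly under 16. Of 6 astrocyte and radial glia genes, Aldh1l1, S100b and Slc1a2 were under 16 on every array, and the list summed to 153 and 110 in control, against 124 and 121 in LIN28A cells, with 1 gene higher and 1 lower on both LIN28A arrays. The glutamate transporter gene Slc1a3 made up most of that sum, at 90.1 and 88.9 in control, against 107 and 100 in LIN28A cells. Gfap read 22.1 and 9.30 in control, against 1.30 and 11.5 in LIN28A cells. Aqp4 read 19.5 and 2.30 in control, against 4.90 and 1.60. The median difference of the 6 genes was -0.21, and 3 of them were lower within both numbers. All 7 visceral endoderm genes were under 16 on every array, 2 of them lay lower on both LIN28A arrays, and they summed to 59.7 and 25.0 in control, against 39.3 and 17.8 in LIN28A cells. Of 6 macrophage genes Aif1, C1qa and Ptprc were under 16 on every array, 3 lay lower and 1 higher on both LIN28A arrays, and the list summed to 56.6 and 63.2 in control, against 41.7 and 52.0 in LIN28A cells. Their part in the Apoe readings was not tested.

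Lrp1 encodes a large endocytic receptor that clears many ligands, apolipoprotein E among them. Its probe set (1448655_at) read 117 in control 1, 185 in control 2, 114 in LIN28A 1 and 216 in LIN28A 2. The highest and the lowest array were both LIN28A arrays, so the lines overlapped. The log2 difference was 0.09 ± 0.40 (SE), -0.03 in number 1 and 0.21 in number 2, while number 2 exceeded number 1 by 0.59 in control, against 0.83 in LIN28A cells. Without LIN28A replicate 2 it was -0.33 and without control replicate 1 it was -0.21. Fibroblasts also express Lrp1, and of 7 fibroblast genes Col1a1, Lum and Thy1 were under 16 on every array, 1 lay higher on both LIN28A arrays (Col3a1), and the list summed to 239 and 114 in control, against 183 and 419 in LIN28A cells. The part of such cells in the Lrp1 readings was not tested.

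The rest of the pathway was read from a list of 55 genes in 8 roles, of which 44 had a tested probe set. Of the other 11, 5 read under the filter and 6 had no probe set with that symbol alone and were not analysed here. With each gene's brightest tested probe set, limma called none of them in either direction (0 higher, 0 lower, as 0% were over all probe sets), and 0 had an unadjusted p under 0.05. With the replicate number as a block, 0 of the 44 were called and 2 had an unadjusted p under 0.05 (Rapgef1 and Mapk8ip1, both higher). Of the 44, 21 lay above 0 and 23 below, with a median of -0.07, beside 56.4% of all tested probe sets below 0. Median centring, which moved the median over all tested probe sets from -0.05 to 0.08, turned this split to 27 above and 17 below, and quantile normalization to 23 and 21. Without 1 array it ranged from 16 above and 28 below (without LIN28A replicate 2) to 28 and 16 (without LIN28A replicate 1), with 24 and 20 once control replicate 2 was left out. With no overlap between lines, 7 of the genes were higher and 5 lower in LIN28A cells, against 10% and 15.5% of all probe sets.

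The Src-family kinase genes, whose products phosphorylate DAB1, all lay above 0 at their brightest probe sets. Fyn read 374 and 308 in control 1 and 2, and 499 and 377 in LIN28A 1 and 2. Src read 63.8 and 39.7 in control, against 83.1 and 65.0 in LIN28A cells. For both, the LIN28A arrays lay above the control arrays, by a narrow margin, and the log2 differences were 0.34 ± 0.31 and 0.43 ± 0.32 (SE). Yes1, the other kinase gene of the list, differed by 0.11, with -0.24 at its other probe set, and its sign turned without LIN28A replicate 2 (-0.073) or control replicate 1 (-0.0047).

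Among the adaptors and relays, 8 of 13 lay above 0 at the brightest tested probe set. Other tested probe sets had the opposite sign for Crkl (0.29, with -0.76 to -0.44 at the others) and Pik3r1 (0.15, with -0.26). Some also did for Rap1b (0.17, with -0.02 to 0.09), and, among genes below 0, for Crk (-0.32, with -0.71 to 0.03) and Pik3ca (-0.17, with 0.12). Rapgef1, whose product activates the GTPase Rap1 once CRK proteins have bound DAB1, had the widest difference of all 44 genes. It read 97.7 in control 1, 87.3 in control 2, 162 in LIN28A 1 and 152 in LIN28A 2, so the LIN28A arrays stood clear of the control arrays (log2 difference 0.67 ± 0.28 SE, 0.65 in number 1 and 0.70 in number 2, adjusted p over all probe sets 1.0 by limma). The scaffold gene Mapk8ip1, whose product binds ApoER2, read 6.80 and 110.5 in control, against 20.1 and 171 in LIN28A cells, with a difference of 0.61 ± 1.04 (SE). That gene followed the number, and its difference was -0.57 without LIN28A replicate 2 and -0.62 without control replicate 1.

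No gene of the other roles was called. Of the 6 reelin-binding or processing genes 2 lay above 0, and the ephrin-B genes Efnb2 and Efnb3 differed by 0.24 ± 0.28 and -0.34 ± 0.30 (SE), with -0.55 to -0.15 at the other Efnb2 probe sets. Of the 10 cytoskeletal effector genes 3 lay above 0. Cdk5r1, an activator of the kinase CDK5, differed by -0.35 ± 0.56, and Pafah1b2, whose product partners with LIS1, by 0.32 ± 0.34, with -0.15 to 0.06 at its other probe sets. The difference of Pafah1b2 was 0.04 with control replicate 1 left out and 0.13 with LIN28A replicate 2 left out. Cdk5r1 read 117, 254, 77.6 and 220 in the order control 1, control 2, LIN28A 1, LIN28A 2, so number 2 was the higher in each line. Its difference was 0.31 without LIN28A replicate 1 and 0.16 without control replicate 2.

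Of the 4 tested genes listed under turnover of DAB1 and the receptors, 3 lay below 0 and none was called. Socs7, which targets DAB1 for degradation, was under 16 on every array (15.4, 13.8, 11.2 and 9.40), and Rnf7, of the same ubiquitin ligase system, differed by -0.13 ± 0.33 (SE), and by 0.0007 under median centring. Dab2, the other Dab-family adaptor, differed by 0.53 ± 0.39, with LIN28A 2 alone above 16 (39.0), and by -0.31 at its other tested probe set. Of the other low density lipoprotein receptor family, Lrp2 and Lrp10 differed by 0.31 ± 0.49 and -0.50 ± 0.36 and by -0.24 and 0.0018 in number 2. Lrp2 was -0.37 without control replicate 1. Of the other apolipoprotein genes only Clu, the clusterin gene, had a tested probe set, and it differed by -0.40 ± 0.33.

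**Figure D4:**
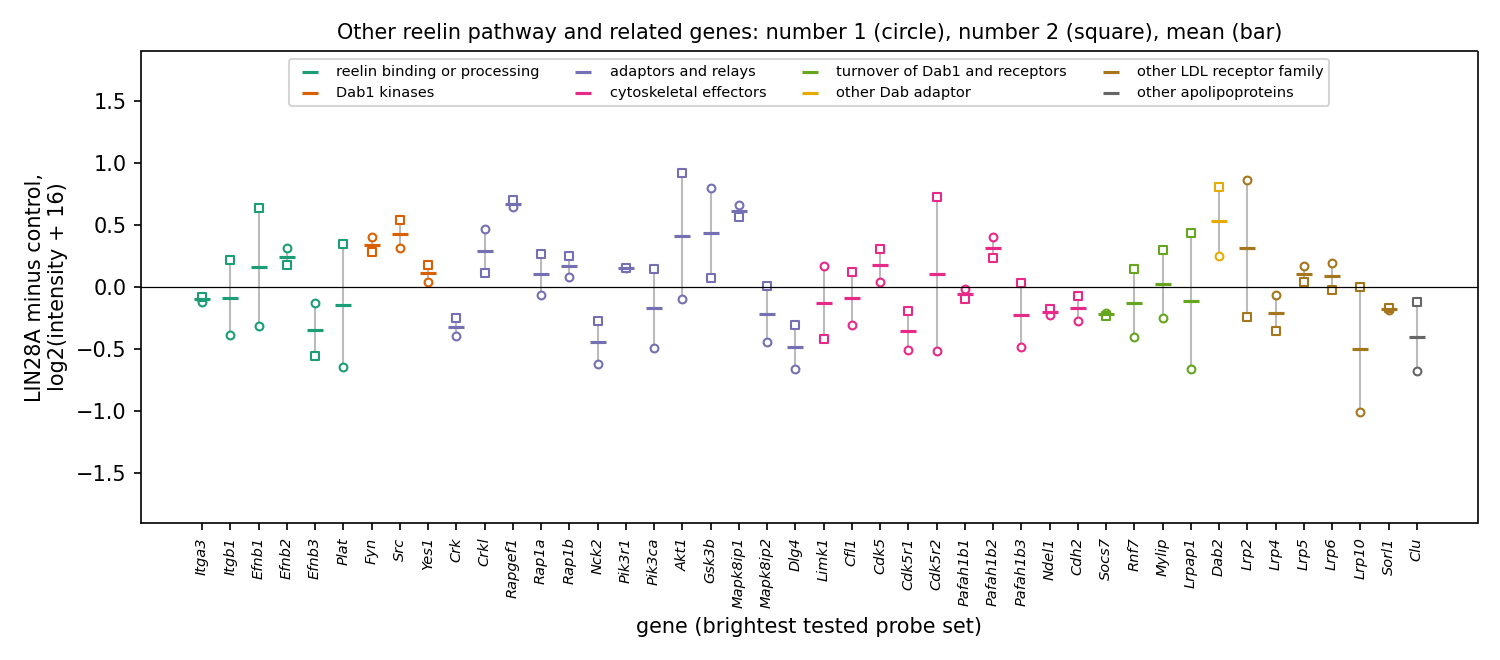
LIN28A minus control on the log2(intensity + 16) scale for the 44 other pathway and related genes with a tested probe set, coloured by role, with number 1 as a circle, number 2 as a square and their mean as a bar. The means lie between -0.50 (Lrp10) and 0.67 (Rapgef1), and for Rapgef1 both numbers lie close to the mean.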

How the data were processed

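RNA of 4 samples was measured on 1-colour Affymetrix arrays after cDNA synthesis with an oligo(dT) primer and biotin labelling of cRNA, per the labels' protocols. The authors deposited 1 table of linear intensity values for 22690 probe sets. Which software summarised and scaled them is not stated in the labels or the table. With 2% trimmed from each end, the mean was 150.1 on every array, so no further scaling was applied. The table holds no detection calls. Of the 22626 probe sets other than 64 Affymetrix controls, 20380 had 1 gene symbol in the platform annotation, 691 had several and 1555 were unnamed.

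Values were turned into log2(intensity + 16), which understates differences of dim probe sets. Probe sets with a mean under the 30th percentile (about 8.04 in intensity) were left out, leaving 15838. The lines were compared with limma 3.58.1 (R 4.3.3; lmFit and eBayes, no block), with Benjamini-Hochberg adjustment over all tested probe sets. With 2 arrays a line, the smallest two-sided exact permutation p for a single value is 0.333, and the number of arrays limits precision. The p-values measure the spread between these arrays only, which may be technical. Each SE of a difference is of the fit without a block, and so holds the difference between numbers. The members and lists were chosen with earlier results of these data known. Per role, the 2 pathway genes with the widest difference were named, with any called, and the 5 genes nearest to Vldlr. Alternatives were another pseudocount (1 or 64), filter, normalization, eBayes trend, the replicate number as a block and leaving out each array. Start-site windows came from RefSeq (GRCm38.p6), and all 6 genes matched.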

Additional observations from a re-analysis of the deposited data

How the results depend on the processing

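The labels give both lines the same replicate numbers without saying what a number shares. The number 2 minus number 1 differences of the lines correlated across probe sets (r = 0.62), and with 2 pairs this does not settle the pairing. With the replicate number as a block limma called 1 probe set higher and 0 lower (468 and 890 at an unadjusted p under 0.05). With quantile normalization as well, a setting chosen after seeing the data, limma called 3 higher (Peg3, Sall4 and Zcchc3) and 0 lower. At an unadjusted p under 0.05 that setting had 705 higher and 709 lower. No reelin pathway gene was called in any setting. Without the block, every planned setting called 0 in each direction. The 50th percentile filter left 8 of the 13 member probe sets, of which 7 were lower in both numbers and 3 had no overlap, because fewer were kept. The Vldlr median difference was -1.45, -0.95 with pseudocount 64 and -1.79 with pseudocount 1, a choice that moves dim probe sets most. Without any single array it lay between -1.67 and -1.21. Of 130 recomputed member differences 11 changed sign, 9 of them when 1 array was left out. The 130 include the settings with no filter and with the 50th percentile filter, which cannot change a difference. Without 1 array, Reln lay between -1.02 (LIN28A replicate 2) and 0.14 (LIN28A replicate 1) and Lrp1 between -0.33 and 0.50. Lrp8 lay between -0.13 and 0.045, and at 0.17 and 0.083 under quantile normalization and median centring. Dab1 lay between -0.89 and 0.23 at 1427308_at, -1.45 and 0.0033 at 1435577_at, and -1.37 and 0.075 at 1435578_s_at. Leaving out 1 array lets part of the difference between numbers in. Median centring added the same amount to every difference, which took Lrp8 from -0.044 to 0.083. The cause of the change of sign under quantile normalization was not tested. Readings near or under 16, the value added before the log, limit Lrp8 and the Vldlr probe sets 1451156_s_at and 1442169_at. The difference at 1442169_at was -2.28 with pseudocount 1 and -0.63 with pseudocount 64.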
